A study of Mus musculus with 18 samples.

Results

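Compound A, an inhibitor of the estrogen-related receptor alpha (ERRα) that the labels name only by a code, was set against resting cells on 6 arrays of wild-type mouse CD4+ T cells, 3 arrays per group. The members are all probe sets of a single gene that reached a log2 signal of 4 on 3 or more of the 18 arrays of the series, which were 10691 of 20380 such probe sets, for 6873 genes. Of these, 7 passed this filter through the resting wild-type arrays alone and 1 through the compound A arrays alone. A further 5 passed through the stimulated wild-type arrays alone and 49 through the XCT790 arrays alone. The series holds 6 groups of 3 independent biological replicates on Affymetrix Mouse Genome 430A arrays, from mice aged 6 to 8 weeks, with CD4+ T cells enriched by negative selection to over 95% purity.

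Resting wild-type cells were lysed straight after isolation. Stimulated wild-type cells were kept in culture for 12 h with anti-CD3 and anti-CD28 (10 µg), which engage the T cell receptor and its main costimulatory receptor. Compound A and XCT790, an inverse agonist of ERRα, were each given at 20 µM to wild-type cells, at 1 dose and 1 time. Resting and stimulated cells of ERRα-/- mice make up the other 2 groups. The protocol and the design text place both inhibitors in the 12 h stimulation, whereas the stimulation field of the inhibitor arrays reads as unstimulated, and the labels name no vehicle. The comparison of compound A with resting cells therefore holds the compound, the culture and, per the protocol, the stimulation, which cannot be told apart in it, and each result below is set beside the stimulated wild-type arrays.

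A CD4+ T cell that meets antigen leaves quiescence. Calcium and NFAT, AP-1 and NF-κB signals switch on cytokines, chemokines and surface receptors within hours, the transcription factor Myc drives ribosome production and the uptake and synthesis of nutrients, and cell division follows. ERRα, encoded by Esrra, is an orphan nuclear receptor that activates genes of mitochondrial respiration and fatty acid oxidation, and has been linked to the metabolic growth of activated T cells.

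The values are log2 signals, and when sorted they are identical on all 18 arrays, spanning 1.83 to 15.37, so every difference is relative to the other genes of an array and the number of arrays limits the precision. "Passed", "rose" and "fell" mean an adjusted p under 0.05 in limma across all tested probe sets, and the adjusted p-values below are from that fit; errors are SEs of the fit with 3 arrays per group, and folds are powers of the log2 difference. Values under log2 4 are treated as below a floor. A fold whose lower group lies wholly under it is computed from 4 and written "at least", and single arrays under it were raised to 4 before a fold was taken. A gene wholly under the floor in 1 compared group passed the filter through other arrays. Its direction against a group above the floor was therefore fixed in advance. The 7 T cell markers on the array, among them Cd3e, Cd4 and Lck, averaged above log2 4 in the resting, stimulated and compound A groups. The 5′ probe set of the bacterial dap control, an RNA added before labelling, split the series: it read 6.38, 3.99 and 4.83 on resting and 5.68, 4.49 and 5.28 on stimulated wild-type arrays, and 7.45 to 8.51 on the others, including 7.77, 7.94 and 8.10 with compound A. The 3′ probe set of this control did not follow the split. Compound A and this split cannot be told apart against either wild-type group, so the knockout arrays, which lie on the compound A side of it, are given as a second reference where they change a result. Those arrays lack ERRα, the target of the compound, so compound and genotype cannot be told apart against them. A difference that fails to pass there does not show that the one against wild-type cells was due to the split. Array 1 stood apart from arrays 2 and 3 in each of the 3 groups: the SD of the difference between compound A arrays was 0.320 and 0.324 with array 1 and 0.188 without it. With arrays 2 and 3 alone, a choice made after seeing the data, 4220 probe sets were higher and 3721 lower with compound A than at rest.

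Against resting cells, 3984 probe sets were higher with compound A and 3440 lower, 37.3% and 32.2% of those tested. Stimulated cells differed from the same resting arrays at 4284 and 3683 probe sets, 40.1% and 34.4%. Compound A differed from stimulated wild-type cells at 3636 probe sets (1710 higher and 1926 lower), 34.0%, but most of these were small: 598 reached 2-fold, 5.59% of those tested, against 3050, 28.5%, for compound A against rest. In the counts below each gene stands for 1 probe set, the one with the highest mean. At that level 32.4% of the 6873 genes were higher and 37.0% lower with compound A than at rest, and 14.4% were higher and 18.6% lower than in stimulated wild-type cells.

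Esrra, the target of the inhibitor, was itself little changed. It read 5.51, 5.25 and 5.51 on the resting, 5.28, 5.47 and 5.36 on the stimulated and 5.10, 5.10 and 5.12 on the compound A arrays, against means of 4.55 and 4.45 on the resting and the stimulated knockout arrays. The compound A arrays lay below all resting and stimulated wild-type arrays and above the knockout means. The difference from rest was -0.31 ± 0.11 (SE; adjusted p = 0.0243), and it did not pass without compound A array 1 (adjusted p = 0.0524) or 2 (0.0541), or without resting array 1 (0.0828) or 3 (0.084).

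To sort the response into arms, activation genes were chosen on the knockout arrays alone, which hold none of the compared arrays: 995 genes rose and 1157 fell at least 2-fold with stimulation, 14.5% and 16.8% of genes tested. A gene that responds only in cells with ERRα cannot enter this set, so the class counts do not cover all of wild-type activation. Of the 995, 972 rose in stimulated wild-type cells and 913 with compound A, with median differences from rest of 1.57 and 1.18 against -0.01 and -0.05 over all genes. A gene was called kept when it passed against rest in the knockout direction and did not pass against stimulated wild-type cells. It was called blunted when it passed against rest and also against stimulated cells, on their resting side. Missing genes passed against stimulated cells on the resting side and did not pass against rest, and exceeded genes passed against both, beyond stimulated cells. Kept therefore does not show that a gene reached the stimulated level. Among the rising genes 449 were kept, 429 blunted, 51 missing, 35 exceeded and 31 undecided. Among the falling genes 720 were kept (62.2%), 306 blunted, 22 missing, 29 exceeded and 80 undecided. The kept falling genes include markers of other cell types, which are described below. By wider marker lists, 14 of 15 macrophage, 7 of 7 B cell, 5 of 6 erythroid and 3 of 8 neutrophil genes in the set were kept. Their part in the falling counts was not tested further.

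**Figure D1:**
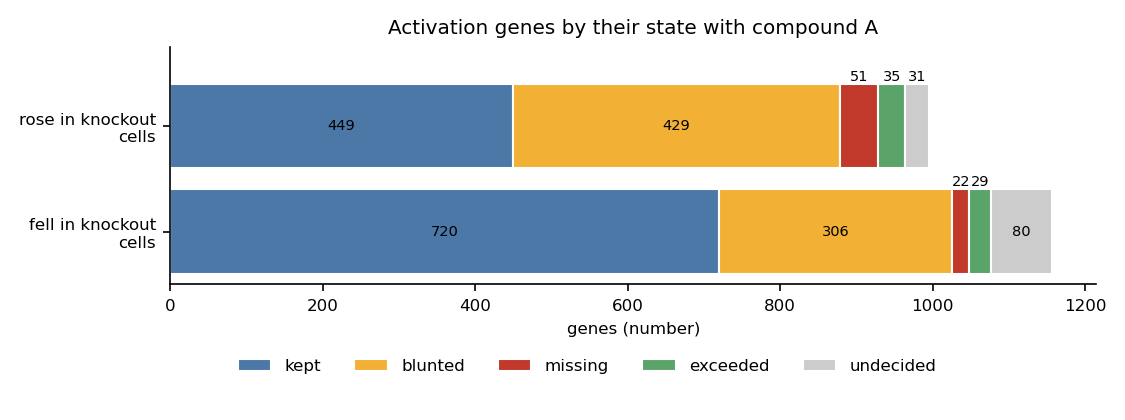
Number of activation genes in each class, by their direction in knockout cells (rose: 995 genes; fell: 1157 genes). Kept and blunted genes make up most of both bars, and the missing genes number 51 and 22.

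Blunting was partial. The 429 blunted rising genes had a median difference from rest of 1.11 with compound A and 1.69 in stimulated cells. The 51 missing genes stood at a median of 0.22 above rest with compound A and 1.50 in stimulated cells; a p that misses the threshold does not show that they stayed at the resting level. Beside the stimulated knockout arrays, which helped to choose these genes, 257 of the 429 and 38 of the 51 were lower with compound A, and 237 of the 306 blunted and 16 of the 22 missing falling genes were higher. The exceeded classes were small and unsteady: the 35 became 23, 19 or 20 without stimulated array 1, 2 or 3 and 18 or 19 without compound A array 2 or 3, and the 29 became 17, 18 or 16 and 13 or 13, and 50 with the array number as a block.

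Cytokine genes were induced with compound A, but in smaller number and to a lower level than in stimulated cells. Of 16 tested, 11 rose and 2 fell in stimulated cells, where 36.8% and 38.3% of all genes did, and 7 rose and 2 fell with compound A. The median difference from rest was 2.30 in stimulated and 1.09 in compound A cells. Direct comparison put 7 cytokines lower with compound A than in stimulated cells, 4 without stimulated array 3. Of the 16, 8 lay under the floor on all resting arrays and 3 on all compound A arrays. Such genes passed the filter through other arrays, so the cytokine counts are partly set by the filter. Bulk arrays cannot tell fewer producing cells from less RNA per cell.

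Il2, the main T cell growth factor, read 3.96, 4.74 and 4.68 at rest, 11.13, 11.35 and 11.27 after stimulation and 9.80, 10.59 and 10.58 with compound A. It was therefore strongly induced on all 3 compound A arrays, which lay above every resting and below every stimulated array. The rise over rest was 5.87 ± 0.28 (SE; adjusted p = 3.35e-10), 57.8-fold. The shortfall from stimulated cells was -0.93 ± 0.28 (SE; adjusted p = 0.0189), and it did not pass without compound A array 1 (-0.67, adjusted p = 0.0866) or stimulated array 2 (0.0585) or 3 (0.0515), nor against stimulated knockout cells (-0.49, adjusted p = 0.223).

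Ifng, the signature cytokine of type 1 helper cells, read 7.58, 7.96 and 7.63 at rest, 11.81, 11.14 and 11.70 in stimulated and 10.0, 9.29 and 10.39 in compound A cells. The 3 groups did not overlap, and the compound A arrays lay between the others. Ifng was 4.49-fold above rest, a difference of 2.17 ± 0.34 (SE; adjusted p = 4.38e-05), and 3.15-fold below stimulated cells, a difference of -1.66 ± 0.34 (SE; adjusted p = 0.00181). Lif, a cytokine of the interleukin 6 family, stood at 2.43, 2.46 and 2.47 at rest, 8.11, 7.80 and 8.20 after stimulation and 6.10, 6.03 and 6.47 with compound A. Its compound A arrays were likewise between the groups, with a mean at least 4.59-fold above rest and 3.58-fold below stimulated cells (-1.84, adjusted p = 0.00531). Lta, which encodes lymphotoxin alpha, was 5.06-fold above rest (2.34, adjusted p = 3.98e-06) and differed from stimulated cells by 0.32 (adjusted p = 0.428).

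The type 2 cytokine Il4 was among the missing genes. Its arrays read 3.94, 4.40 and 4.0 at rest, 7.29, 6.58 and 7.66 after stimulation and 5.04, 4.92 and 4.79 with compound A. The compound A arrays stayed just above the resting ones and well below the stimulated ones. The difference from rest was 0.80 ± 0.39 (SE; adjusted p = 0.0772) and from stimulated cells -2.26 ± 0.39 (SE; adjusted p = 0.000546), a 4.78-fold shortfall; against resting knockout cells Il4 passed, at 1.59 (adjusted p = 0.00208). Il3, a growth factor for myeloid cells, lay at 2.14 on all compound A and resting arrays, under the floor, and at 3.57, 3.39 and 4.24 on the stimulated arrays, a difference of -1.60 ± 0.23 (SE; adjusted p = 0.000137) between compound A and stimulated cells at levels near the floor. Il3 passed the filter through arrays outside the compound A and resting wild-type groups, so its direction against compound A was fixed by the filter.

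Chemokines, which draw other immune cells, ranged from strong induction to none that passed. In stimulated cells 8 of 10 rose and with compound A 5, with median differences from rest of 4.62 and 1.77. Of the 10, 4 lay under the floor on all resting arrays and 2 on all compound A arrays, so the chemokine counts are also partly set by the filter. With compound A 5 were lower than in stimulated wild-type cells (3 without compound A array 2 or 3 or stimulated array 1) and 9 lower than in stimulated knockout cells, where 13.6% of all genes were higher and 11.5% lower.

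Ccl22, a ligand of CCR4, read 2.45, 2.84 and 2.61 at rest, 11.71, 11.48 and 11.74 after stimulation and 11.15, 10.25 and 10.54 with compound A. Every compound A array was far above rest. The group mean was at least 100.2-fold above it, and the distance to stimulated cells did not pass, at -1.0 ± 0.43 (SE; adjusted p = 0.086), although it did against stimulated knockout cells (-1.37, adjusted p = 0.0312). Ccl4, an inflammatory chemokine, was 42.6-fold above rest and differed from stimulated cells by -1.0 (adjusted p = 0.0696), and from stimulated knockout cells by -1.38 (adjusted p = 0.0228). Ccl3, a related chemokine, stood at 4.18, 4.65 and 4.07 at rest, 10.21, 9.06 and 9.66 after stimulation and 8.35, 7.25 and 7.48 with compound A. Ccl3 was 10.5-fold above rest and 3.88-fold below stimulated cells (-1.96, adjusted p = 0.00939), with no overlap between the groups. Cxcl9, a ligand of CXCR3 induced by interferon gamma, was at least 7.98-fold above rest and differed from stimulated cells by -1.64 (adjusted p = 0.0274), which did not pass without compound A array 2 (adjusted p = 0.136) or 3 (0.0619) or stimulated array 1 (0.11).

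Ccl1, a ligand of CCR8, was missing. It read 2.15, 2.15 and 2.15 at rest, 7.68, 7.33 and 7.53 after stimulation and 2.71, 3.09 and 2.73 with compound A. All resting and compound A arrays lay under the floor and all stimulated arrays far above it. Ccl1 thus passed the filter through arrays outside those 2 low groups, and its direction against compound A was fixed by the filter. Ccl1 was at least 11.4-fold lower with compound A than in stimulated cells, a difference of -4.67 ± 0.34 (SE; adjusted p = 4.45e-07), and differed from stimulated knockout cells by -4.50 (adjusted p = 2.31e-06). Xcl1, a chemokine for cross-presenting dendritic cells, differed from rest by 0.22 (adjusted p = 0.702) and from stimulated cells by -1.86 (adjusted p = 0.0103). Ubd, a ubiquitin-like protein induced by interferon gamma and tumor necrosis factor, read 2.99, 2.13 and 2.13 with compound A and 7.40, 5.02 and 5.55 after stimulation, at least 3.97-fold lower (-3.57, adjusted p = 0.000651; -2.87 without stimulated array 1).

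Il2, Il4 and Ccl1 show the spread among ligands of activated cells, from blunted to missing. The 250 bases before a start site of each gene are therefore printed for comparison, from the RefSeq table of GRCm38.p6, 5′ to 3′ on the gene's strand. Capitals mark the NFAT core GGAAAA and its reverse complement TTTTCC, searched on both strands.

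Il2, chr3:37125955-37126204, minus strand: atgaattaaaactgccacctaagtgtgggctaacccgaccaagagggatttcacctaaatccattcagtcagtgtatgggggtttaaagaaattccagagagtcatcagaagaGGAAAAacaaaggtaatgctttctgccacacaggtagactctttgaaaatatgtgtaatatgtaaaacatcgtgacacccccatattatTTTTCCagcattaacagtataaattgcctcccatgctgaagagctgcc
Ccl1, chr11:82179813-82180062, minus strand: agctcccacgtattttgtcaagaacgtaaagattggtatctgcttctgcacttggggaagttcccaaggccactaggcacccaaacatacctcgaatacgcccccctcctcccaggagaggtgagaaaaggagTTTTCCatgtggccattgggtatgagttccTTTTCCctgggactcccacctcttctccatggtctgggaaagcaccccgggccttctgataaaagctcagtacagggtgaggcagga
Il4, chr11:53618666-53618915, minus strand: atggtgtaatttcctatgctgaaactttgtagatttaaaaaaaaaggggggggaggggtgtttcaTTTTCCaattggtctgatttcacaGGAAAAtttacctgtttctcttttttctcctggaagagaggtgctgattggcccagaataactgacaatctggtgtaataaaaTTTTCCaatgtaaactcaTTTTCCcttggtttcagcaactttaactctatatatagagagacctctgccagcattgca

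The blunted Il2 window held 2 of these matches, and the windows of the missing genes Ccl1 and Il4 held 2 and 4; a second start site of Il4 in the table had 0. None of these windows held the ERR element AAGGTCA or the AP-1 element TGANTCA. The NFAT core was found in 20.4% of all 32851 windows and 19% of the 7297 windows of tested genes, and in 89 of 468 windows of kept (19.0%), 83 of 425 of blunted (19.5%) and 16 of 52 of missing rising genes (30.8%). The ERR element was found in 4.08% of all windows, in 2.74% of those of tested genes, from which the classes are drawn, and in 2.99%, 2.82% and 3.85% of these classes. The AP-1 element was found in 6.75% of all windows and 4.12% of those of tested genes. In the same rising classes it was found in 4.70%, 3.53% and 5.77%. Among falling genes the NFAT core was found in 18.9% of windows of kept, 18.6% of blunted and 25% of missing genes (7 of 28). A gene can have several windows, and the 52 of missing rising genes belong to 41 genes. Such matches describe letters in a window and were not tested as binding sites.

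The ligands of the tumor necrosis factor family were mostly present by their counts against rest. Of 7 tested, 5 rose with compound A and 5 in stimulated cells, with medians of 1.63 and 1.57. Set directly against stimulated cells, the median difference was -0.64 for wild-type and -0.67 for knockout cells. In each of these, 1 ligand was higher and 1 lower with compound A. Tnfsf8, the CD30 ligand, was 15.7-fold above rest (3.97, adjusted p = 1.64e-06); against resting knockout cells the difference was 2.32. Fasl, the death ligand of T cells, read 7.53, 7.85 and 7.79 at rest, 8.59, 7.94 and 8.11 after stimulation and 9.63, 9.53 and 9.28 with compound A. Its compound A arrays were the highest of the 3 groups, above rest by 1.76 (adjusted p = 0.000127) and above stimulated cells by 1.26 (adjusted p = 0.00573). Tnfsf4, the OX40 ligand, went the other way: it differed from rest by 0.41 (adjusted p = 0.453) and from stimulated cells by -1.72 (adjusted p = 0.0121), which did not pass without stimulated array 3 (adjusted p = 0.0573), and it differed from resting knockout cells by 1.42 (adjusted p = 0.0158).

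**Figure D2:**
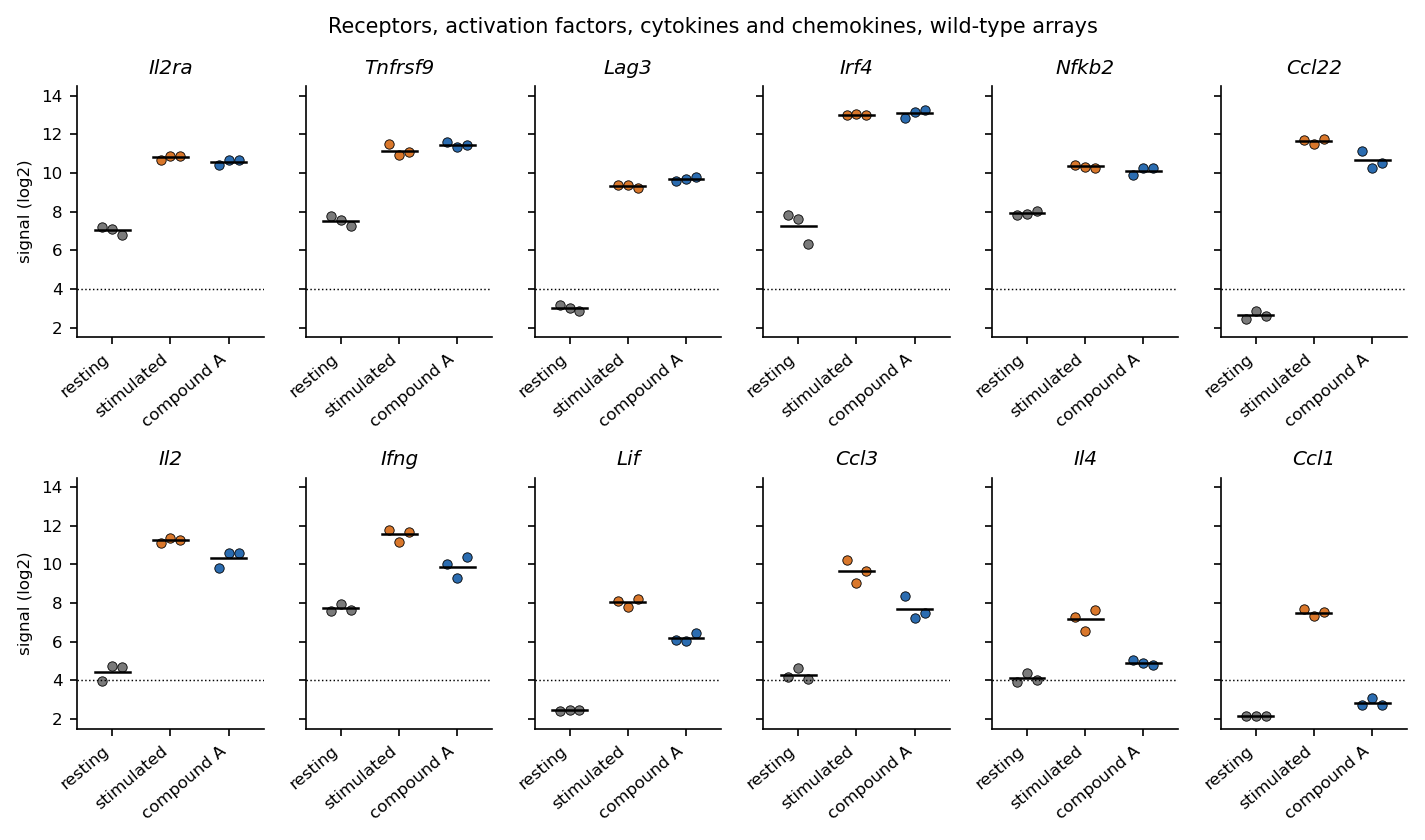
Log2 signal of 12 genes on the resting, stimulated and compound A arrays of wild-type cells (points: arrays 1 to 3 from left to right; line: mean; dotted line: floor of log2 4). The upper row holds genes whose difference between compound A and stimulated cells did not pass, the lower row runs from Il2, close to the stimulated level, to Il4 and Ccl1, close to rest.

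Of 20 costimulatory and inhibitory receptors tested, 11 rose and 2 fell with compound A, against 12 and 3 in stimulated cells, with medians of 0.84 and 1.23. With compound A 4 were lower than in stimulated cells, 2 without compound A array 2 or 3 or stimulated array 2, and 1 was lower than in stimulated knockout cells. Another 2 were higher than in stimulated wild-type cells, which did not pass without compound A array 2 or 3 or stimulated array 3, and 1 passed without stimulated array 1 or 2. Tnfrsf9 (4-1BB), a costimulatory receptor of activated T cells, read 7.76, 7.55 and 7.26 at rest, 11.50, 10.91 and 11.07 after stimulation and 11.59, 11.32 and 11.47 with compound A. The stimulated and compound A arrays overlapped, 15.3-fold above rest with compound A; the difference between them was 0.30 (95% interval -0.08 to 0.68, adjusted p = 0.215). Tnfrsf4 (OX40) was 9.15-fold above rest and differed from stimulated cells by -0.08 (adjusted p = 0.793). Lag3, an inhibitory receptor that binds MHC class II, stood at 3.15, 3.01 and 2.85 at rest, 9.35, 9.37 and 9.24 after stimulation and 9.60, 9.69 and 9.78 with compound A. It was at least 51.7-fold above rest with compound A. The compound A arrays lay above every stimulated array, but the difference of 0.37 did not pass (adjusted p = 0.663).

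Among 17 cytokine receptor chains tested, 5 rose and 9 fell with compound A. Il2ra, the chain that gives the interleukin 2 receptor its high affinity, read 7.20, 7.12 and 6.77 at rest, 10.68, 10.87 and 10.89 after stimulation and 10.39, 10.65 and 10.70 with compound A. It was 11.7-fold above rest, and -0.24 from stimulated cells with an interval of -0.73 to 0.25, with overlapping arrays. Il7r, the receptor chain that keeps naive T cells alive, fell 28.9-fold, from 13.39, 13.29 and 13.40 to 8.15, 8.75 and 8.62, and stood at 8.64, 8.88 and 8.92 in stimulated cells. Il12rb1, a chain of the interleukin 12 receptor, was 4.66-fold above rest (2.22, adjusted p = 0.000186) and differed from stimulated cells by -1.46 (adjusted p = 0.0121); the latter did not pass without compound A array 2 (adjusted p = 0.0633) or 3 (0.0525) or stimulated array 1 (0.0516), nor against stimulated knockout cells (0.0868).

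The NF-κB arm was present. Of 13 subunits and inhibitors tested, 7 rose with compound A and 7 in stimulated cells, with medians of 0.50 and 0.51, and 3 were higher with compound A than in stimulated cells (1 higher beside stimulated knockout cells). Nfkb2, the precursor of the alternative pathway, read 7.85, 7.87 and 8.03 at rest, 10.41, 10.32 and 10.27 after stimulation and 9.88, 10.23 and 10.23 with compound A. It was 4.6-fold above rest and differed from stimulated cells by -0.22 (adjusted p = 0.199). Rel, which encodes c-Rel, was 7.58-fold above rest and differed from stimulated cells by -0.39 (adjusted p = 0.4).

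The AP-1, Egr and Nr4a factors, early targets of receptor signalling, were mixed: 6 of 17 rose and 6 fell with compound A, 8 rose and 5 fell in stimulated cells, and 5 were lower with compound A than in stimulated cells. Fos, high in cells taken straight from the mouse, read 13.76, 14.06 and 14.04 at rest and 9.36, 7.93 and 7.98 with compound A, a 46.2-fold fall, and 8.36, 7.98 and 7.98 in stimulated cells. Fosb fell at least 42.5-fold with compound A and at least 42.5-fold in stimulated cells. Atf3, a stress-responsive factor of the family, stood at 3.24, 4.78 and 3.37 at rest, 9.07, 8.94 and 9.11 after stimulation and 7.66, 7.74 and 7.86 with compound A. It was 11.3-fold above rest and 2.44-fold below stimulated cells (-1.28, adjusted p = 0.00648). Fosl1, an inducible AP-1 subunit, differed from stimulated cells by -1.69 (adjusted p = 0.00259). Egr2, which restrains T cell responses, was 3.48-fold above rest (1.80, adjusted p = 0.000464) and differed from stimulated cells by -0.82 (adjusted p = 0.0983); without compound A array 1, which read 10.3 against 9.13 and 8.96 on the others, the latter passed at -1.24 (adjusted p = 0.0125).

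Of 15 lineage and activation factors, 9 rose with compound A and 10 in stimulated cells. Irf4, which translates receptor signal strength into effector programs, read 7.80, 7.64 and 6.33 at rest, 12.99, 13.05 and 13.0 after stimulation and 12.84, 13.16 and 13.24 with compound A. The stimulated and compound A arrays overlapped, Irf4 was 56.7-fold above rest with compound A, and the difference was 0.07 (95% interval -0.53 to 0.67). Myc stood at 9.88, 9.79 and 9.75 at rest, 12.20, 11.99 and 11.99 after stimulation and 11.82, 11.54 and 11.48 with compound A. It was 3.49-fold above rest and 1.37-fold below stimulated cells (-0.45 ± 0.10 SE, adjusted p = 0.00444), with no overlap between the groups. Nfil3, a factor of type 2 and memory programs, was 6.55-fold above rest and differed from stimulated cells by -0.89 (adjusted p = 0.00912). Pim1, a survival kinase induced by cytokine signals, went beyond stimulation: it read 11.04, 11.26 and 11.09 at rest, 12.24, 12.23 and 12.33 in stimulated and 12.87, 13.06 and 13.08 in compound A cells, a difference from stimulated cells of 0.74 (adjusted p = 3.32e-05). Cish, a feedback inhibitor of interleukin 2 signalling, was 8.01-fold above rest and differed from stimulated cells by 0.02 (adjusted p = 0.972), and Spry1, a brake on Ras signalling, was 51.3-fold above rest and differed from stimulated cells by -0.11 (adjusted p = 0.9).

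Genes induced by interferon gamma rose, while Ifng itself was blunted. Of 18 tested, 14 rose with compound A and 12 in stimulated cells, with medians of 1.58 and 1.35. With compound A 7 were higher than in stimulated wild-type cells, against 3 higher and 3 lower beside stimulated knockout cells. Gbp2, an interferon-inducible GTPase, read 10.57, 10.51 and 10.47 at rest, 13.82, 13.81 and 13.87 after stimulation and 13.86, 13.73 and 13.81 with compound A. The stimulated and compound A arrays overlapped, 9.72-fold above rest with compound A. Genes of the type I interferon response fell: 11 of 16 with compound A and 10 in stimulated cells, with medians of -2.02 and -1.66. Oas1a, an antiviral enzyme of that response, fell 6.6-fold from rest (-2.72, adjusted p = 0.000375). It differed from stimulated wild-type cells by -0.80 (adjusted p = 0.272) and differed from stimulated knockout cells by -2.41 (adjusted p = 0.00552), and 6 of the 16 genes were lower than in stimulated knockout cells. The stimulated knockout arrays were uneven: the mean of the list ran from 6.81 to 9.18 on them (SD 1.36), against 6.05 to 6.48 with compound A. How far the shortfall against knockout cells rests on 1 of those arrays was not tested.

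**Figure D3:**
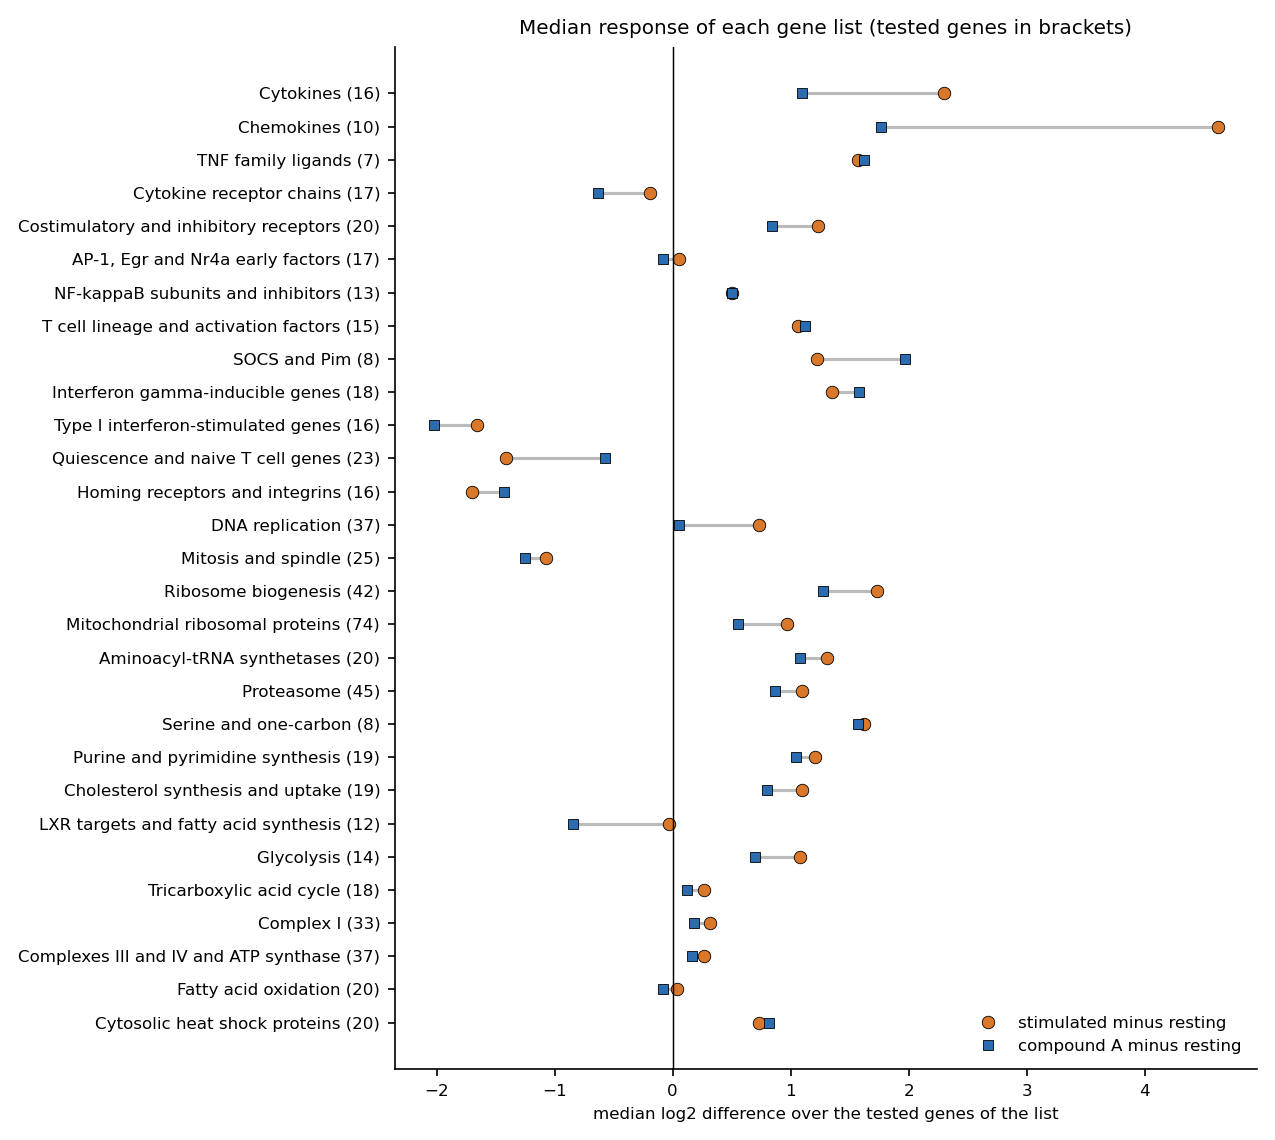
Median log2 difference from resting wild-type cells over the tested genes of 29 of the 44 gene lists, chosen to show the main arms, with compound A (squares) and in stimulated cells (circles); both use the same resting arrays. Among the plotted lists, the squares lie closest to the circles for NF-κB (0.50 and 0.51) and farthest for chemokines (1.77 and 4.62).

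The exit from quiescence was present but shallower. Of 23 quiescence and naive T cell genes, 18 fell in stimulated cells and 12 with compound A, with medians of -1.41 and -0.57. With compound A 16 were higher than in stimulated wild-type cells, and 10 than in stimulated knockout cells. Tsc22d3 (GILZ), a glucocorticoid-induced repressor, read 12.39, 12.44 and 12.29 at rest, 7.83, 8.08 and 8.31 after stimulation and 9.02, 9.43 and 9.55 with compound A. All compound A arrays lay between the groups and differed from rest by -3.04 (adjusted p = 4.05e-09) and from stimulated cells by 1.26 ± 0.19 (SE; adjusted p = 0.000194). Cdkn1b (p27), a brake on the cell cycle, stood at 11.32, 11.52 and 11.43 at rest, 9.05, 9.03 and 9.05 after stimulation and 10.01, 9.76 and 9.93 with compound A. It too lay between: it differed from rest by -1.52 (adjusted p = 1.61e-09) and from stimulated cells by 0.85 ± 0.09 (SE; adjusted p = 7.11e-06). Txnip, an inhibitor of glucose uptake, fell 10.2-fold with compound A and 11.6-fold in stimulated cells, and compound A differed from stimulated cells by 0.19 (adjusted p = 0.226).

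Homing receptors and integrins fell in the same number in both comparisons with rest, 13 of 16, and 6 were higher with compound A than in stimulated cells. S1pr1, the receptor that lets T cells leave lymph nodes, read 9.93, 10.10 and 10.50 at rest, 6.71, 7.07 and 6.92 after stimulation and 8.68, 9.07 and 8.99 with compound A. The compound A arrays lay nearer to rest, with a difference of -1.26 (adjusted p = 0.000765), than to stimulated cells, with 2.01 ± 0.27 (SE; adjusted p = 9.19e-05); against stimulated knockout cells the difference was 0.91 (adjusted p = 0.0255). Cxcr4, the receptor for CXCL12, stood at 11.58, 11.65 and 11.62 at rest, 7.40, 7.15 and 6.97 after stimulation and 8.43, 8.38 and 8.50 with compound A, a 9.08-fold fall with compound A and 21.8-fold in stimulated cells. Itga4, the alpha 4 integrin, lay at 2.28 with compound A and 2.28 in stimulated cells, at least 4.32-fold below rest in both.

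Among the missing rising genes outside the ligands, Gadd45g, a stress adaptor that aids interferon gamma production, read 5.08, 5.38 and 5.50 at rest, 6.81, 6.88 and 7.15 after stimulation and 5.40, 5.61 and 6.04 with compound A. Its compound A arrays overlapped rest, differed from stimulated cells by -1.27 (adjusted p = 0.00205), and differed from resting knockout cells by 0.86 (adjusted p = 0.00895). Tacc2, a centrosome and microtubule protein, stood at 5.62, 4.86 and 5.75 at rest, 8.54, 8.74 and 8.40 after stimulation and 6.78, 5.22 and 5.22 with compound A. Compound A array 1 lay above rest and arrays 2 and 3 within it, and the group was 7.06-fold below stimulated cells (-2.82, adjusted p = 0.000113). Among the exceeded genes, Ccr7, the receptor that guides T cells to lymph nodes, read 12.17, 11.97 and 12.11 at rest, 13.17, 13.24 and 13.32 after stimulation and 13.71, 14.08 and 14.09 with compound A. Every compound A array lay above the stimulated arrays, by 0.72 (adjusted p = 0.00232) on average, but not beyond stimulated knockout cells (0.35, adjusted p = 0.104).

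Genes of DNA replication had a median near rest with compound A, unlike in stimulated cells. In stimulated cells 25 of 37 tested genes rose, with compound A 10 rose and 5 fell, and the medians were 0.73 and 0.05. Compound A cells were lower at 27 of 37 than in stimulated wild-type cells, and at 14 than in stimulated knockout cells. These counts rested on single arrays: the 27 became 13, 11, 13 and 17 without compound A array 2 or 3 or stimulated array 1 or 3, and the 10 became 6 without compound A array 1 or resting array 2. Against resting knockout cells 2 were higher and 21 lower, where 37.1% of all genes tested were higher and 32.5% lower. Both resting groups also held more signal of erythroid and macrophage markers, described below, than compound A cells. The part of such cells in the resting level of the replication genes was not tested.

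Mcm4, a subunit of the replicative helicase, read 10.82, 10.57 and 10.81 at rest, 11.73, 11.63 and 11.63 after stimulation and 10.98, 10.58 and 10.56 with compound A. The compound A arrays overlapped the resting ones and lay below all stimulated arrays, a difference of -0.96 ± 0.13 (SE; adjusted p = 0.000102). Mcm5, of the same helicase, stood at 8.91, 8.06 and 8.27 at rest, 10.48, 10.33 and 10.26 after stimulation and 9.24, 8.54 and 8.39 with compound A. It again overlapped rest (0.31, adjusted p = 0.384) and was 3.1-fold below stimulated cells (-1.63, adjusted p = 0.00114). Mcm3 differed from rest by 0.05 (adjusted p = 0.858) and from stimulated cells by -1.41 (adjusted p = 0.000771). Against resting knockout cells Mcm3, Mcm4 and Mcm5 were lower, with differences of -0.65, -0.55 and -0.77, and these cells held more of several replication genes than resting wild-type cells (Mcm3 mean 10.44 against 9.73). Pold2, a subunit of DNA polymerase delta, was 2.27-fold above rest (1.18, adjusted p = 2.15e-06) and differed from stimulated cells by -0.27 (adjusted p = 0.145).

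Genes of mitosis fell from rest with and without the compound: 16 of 25 with compound A and 12 in stimulated cells. Only 1 was lower with compound A than in stimulated cells, 4 without compound A array 1 and 10 with the array number as a block. Kif23, a motor of cytokinesis, read 5.79, 5.96 and 5.65 at rest and under the floor on all stimulated and compound A arrays, at least 3.48-fold lower. Erythroid and macrophage markers, described below, fell in the same comparison, and their part in the mitosis genes was not tested. Cdkn1a (p21), an inhibitor of cell cycle kinases, rose at least 19.6-fold with compound A. It differed from stimulated knockout cells by -1.83 (adjusted p = 0.00335). It differed from stimulated wild-type cells by -1.0 (adjusted p = 0.0505), and passed there with the array number as a block (adjusted p = 0.00776) and without stimulated array 2 (-1.30, 0.0259).

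Ribosome biogenesis rose throughout and to less than the stimulated level. All 42 genes tested rose with compound A, as in stimulated cells, with medians of 1.27 and 1.73, and 31 were lower than in stimulated wild-type cells, while 19 were lower than in stimulated knockout cells. Nolc1, a nucleolar chaperone of ribosome assembly, read 8.76, 8.60 and 8.62 at rest, 11.19, 11.10 and 11.07 after stimulation and 11.03, 11.13 and 10.92 with compound A. It was 5.17-fold above rest with compound A, overlapping the stimulated arrays, and differed from stimulated knockout cells by -0.32 (adjusted p = 0.0343). Rrp1b, which acts in ribosomal RNA processing, stood at 9.13, 8.97 and 9.05 at rest, 10.86, 10.98 and 10.93 after stimulation and 10.26, 10.22 and 9.93 with compound A. It was 2.12-fold above rest and 1.72-fold below stimulated cells (-0.79 ± 0.08 SE, adjusted p = 1.38e-05).

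Mitochondrial ribosomal proteins followed the same course: 57 of 74 rose and 6 fell with compound A, 66 rose and 2 fell in stimulated cells, and 48 were lower with compound A than in stimulated cells (29 without compound A array 3, 30 beside stimulated knockout cells). Mrpl12, which also binds mitochondrial RNA polymerase, was 1.83-fold above rest and differed from stimulated cells by -0.63 (adjusted p = 1.41e-05). Of 20 aminoacyl-tRNA synthetases 19 rose, with medians of 1.08 and 1.31 with compound A and in stimulated cells; 6 were lower than in stimulated cells, 3 without compound A array 1 or stimulated array 3. Wars, for tryptophan, was 4.03-fold above rest and differed from stimulated cells by -0.01 (adjusted p = 0.979). Proteasome genes rose in 43 of 45 with compound A and 41 in stimulated cells; 13 were lower than in stimulated cells, 8 without compound A array 2 or stimulated array 1 or 2 and 7 without compound A array 3. Psme3, an activator of the proteasome, was 5.85-fold above rest and differed from stimulated cells by -0.25 (adjusted p = 0.0532).

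Genes that make building blocks mostly rose. All 8 tested serine and one-carbon genes and 16 of 19 purine and pyrimidine genes rose with compound A. Of the latter, 10 were lower than in stimulated wild-type and 5 lower than in stimulated knockout cells. Shmt1, which moves one-carbon units from serine to folate, read 4.72, 4.42 and 3.76 at rest, 10.29, 10.30 and 10.28 after stimulation and 9.41, 9.23 and 9.12 with compound A. It was 29.3-fold above rest and 2.05-fold below stimulated cells (-1.03 ± 0.22 SE, adjusted p = 0.00254). Psat1, of serine synthesis, was 5.38-fold above rest and differed from stimulated cells by -0.10 (adjusted p = 0.753). Cad, which starts pyrimidine synthesis, was 2.08-fold above rest and differed from stimulated cells by -0.87 (adjusted p = 0.000334). Bcat1, the cytosolic branched-chain transaminase, stood at 2.24, 2.12 and 2.25 at rest, 9.11, 9.46 and 9.32 after stimulation and 7.63, 7.59 and 7.43 with compound A. Its compound A mean was at least 11.7-fold above rest and 3.35-fold below stimulated cells (-1.75 ± 0.19 SE, adjusted p = 1.41e-05). Srm, spermidine synthase, read 10.10, 9.73 and 9.86 at rest, 12.66, 12.53 and 12.68 after stimulation and 11.69, 11.58 and 11.53 with compound A, 3.26-fold above rest and 2.03-fold below stimulated cells.

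Cholesterol synthesis and uptake rose in 14 of 19 genes with compound A and 15 in stimulated cells; 11 were lower with compound A, 7 without compound A array 3 or stimulated array 1, and 5 beside stimulated knockout cells. Idi1, of isoprenoid synthesis, was 4.8-fold above rest and differed from stimulated cells by -0.82 (adjusted p = 0.00167), and Lss, lanosterol synthase, 1.83-fold above rest and differed from stimulated cells by -1.10 (adjusted p = 0.000235). Of 12 targets of the sterol receptor LXR and fatty acid synthesis genes, 7 fell with compound A and 5 in stimulated cells, and 7 were lower with compound A than in stimulated cells (4 without compound A array 2 or stimulated array 2, 3 without stimulated array 3). Abca1, a cholesterol exporter, read 10.07, 9.66 and 9.53 at rest, 3.51, 2.82 and 4.04 after stimulation and 2.67, 2.18 and 2.18 with compound A. It was at least 53.8-fold below rest with compound A, and the further fall below stimulated cells, -1.11 (adjusted p = 0.00956), lay mostly under the floor. It did not pass without stimulated array 3 (-0.82, adjusted p = 0.0527) or against stimulated knockout cells (0.13).

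Most glycolytic genes rose with compound A. Of 14 tested, 9 rose and 3 fell with compound A, and 10 rose and 1 fell in stimulated cells, with medians of 0.70 and 1.08, and 5 were lower with compound A, 3 without compound A array 1 or stimulated array 3. The 3 that fell from rest became 1 without compound A array 1 or 2 or resting array 1 or 3. Hk2, the inducible hexokinase, read 4.23, 4.51 and 4.17 at rest, 9.86, 9.75 and 9.88 after stimulation and 8.98, 9.03 and 8.91 with compound A. It rose 25.5-fold. Its distance to stimulated cells did not pass, at -0.86 (adjusted p = 0.0539), although every compound A array lay below every stimulated array. With arrays 2 and 3 alone, chosen after seeing the data, the difference passed at -0.84 (adjusted p = 0.0127). Pgam1, a phosphoglycerate mutase, stood at 8.71, 8.90 and 8.99 at rest, 11.01, 10.92 and 10.98 after stimulation and 10.55, 10.39 and 10.27 with compound A. It was 2.9-fold above rest and 1.48-fold below stimulated cells (-0.56 ± 0.10 SE, adjusted p = 0.000884). Slc2a1, the glucose transporter of activated T cells, read 9.25, 9.66 and 9.37 at rest, 10.22, 9.94 and 10.15 after stimulation and 9.59, 9.59 and 9.59 with compound A. The compound A arrays lay within the resting range, a difference of 0.16 (adjusted p = 0.374), and differed from stimulated cells by -0.51 (adjusted p = 0.0237), which did not pass without any 1 compound A array (adjusted p up to 0.0619) or without stimulated array 1 (0.0837) or 3 (0.0705). Against resting knockout cells Slc2a1 was higher, by 0.54 (adjusted p = 0.00757), and it differed from stimulated knockout cells by -0.28 (adjusted p = 0.23). Of 7 glucose and lactate transport genes 2 rose and 2 fell with compound A, against 4 and 2 in stimulated cells, with medians of 0.16 and 0.68. Egln3, an oxygen sensor that is itself induced by hypoxia-inducible factors, stood at 5.26, 5.62 and 5.49 at rest, 7.52, 7.57 and 7.45 after stimulation and 5.60, 5.67 and 5.68 with compound A. It overlapped rest with compound A and was 3.64-fold below stimulated cells (-1.86 ± 0.16 SE, adjusted p = 2.2e-06), and differed from resting knockout cells by 0.39 (adjusted p = 0.0423).

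Genes of the respiratory chain, among them known ERRα targets, had medians slightly above rest. With compound A 15 of 33 complex I genes rose and 2 fell, against 23 and 7 in stimulated cells; for complexes III and IV and ATP synthase 18 of 37 rose and 3 fell, against 25 and 3. The medians were 0.18 and 0.17 with compound A and 0.32 and 0.26 in stimulated cells. Of these, 8 and 10 were lower with compound A than in stimulated wild-type cells, where 18.6% of all genes were, and 3 and 4 were lower than in stimulated knockout cells, where 11.5% were. Ndufab1, an acyl carrier and complex I subunit, read 11.19, 11.32 and 11.22 at rest, 12.49, 12.53 and 12.51 after stimulation and 12.31, 12.44 and 12.44 with compound A. It was 2.22-fold above rest and differed from stimulated cells by -0.12 (adjusted p = 0.31). Ndufs3, a core subunit, stood at 11.43, 11.38 and 11.42 at rest, 11.86, 11.82 and 11.84 after stimulation and 11.44, 11.39 and 11.48 with compound A. It overlapped rest and was 1.32-fold below stimulated cells (-0.40, adjusted p = 9.29e-05). Cycs, cytochrome c, rose 1.48-fold with compound A. It differed from stimulated cells by -0.29 (adjusted p = 0.0359), which did not pass without compound A array 2 (adjusted p = 0.0734) or 3 (0.135) or stimulated array 2 (0.0787) or 3 (0.126). Against stimulated knockout cells the difference was -0.17 (adjusted p = 0.246). Of 18 genes of the tricarboxylic acid cycle, 5 rose and 2 fell with compound A (1 fell without any 1 compound A array or resting array 1 or 3), against 9 and 1 in stimulated cells, with medians of 0.12 and 0.26. Of 24 genes of the ERRα pathway 6 rose and 8 fell with compound A (5 fell without compound A array 2 or resting array 1), and 8 rose and 7 fell in stimulated cells.

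Fatty acid oxidation was mixed. Of 20 genes, 4 rose and 6 fell with compound A, and 4 were higher than in stimulated cells. Cpt1a, the gatekeeper of fatty acid entry into mitochondria, read 8.34, 8.47 and 9.05 at rest, 5.33, 4.15 and 4.68 after stimulation and 7.73, 6.89 and 6.82 with compound A. Its compound A arrays lay between the groups without overlap. Cpt1a differed from rest by -1.47 ± 0.29 (SE; adjusted p = 0.000349) and from stimulated cells by 2.43 ± 0.29 (SE; adjusted p = 3.32e-05), 5.37-fold higher; against stimulated knockout cells the difference was 1.28 (adjusted p = 0.00602). Acadl, long-chain acyl-CoA dehydrogenase, differed from rest by 0.26 (adjusted p = 0.105), which passed with the array number as a block (adjusted p = 0.0446), and from stimulated cells by 0.85 (adjusted p = 0.000339). Acadm, the medium-chain enzyme and a known ERRα target, read 10.39, 10.51 and 10.51 at rest, 10.49, 10.49 and 10.53 after stimulation and 10.35, 10.26 and 10.31 with compound A. Neither difference passed: it differed from rest by -0.16 (adjusted p = 0.254) and from stimulated cells by -0.20 (adjusted p = 0.246). Acaa2, a thiolase, fell 3.48-fold with compound A and 3.34-fold in stimulated cells.

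**Figure D4:**
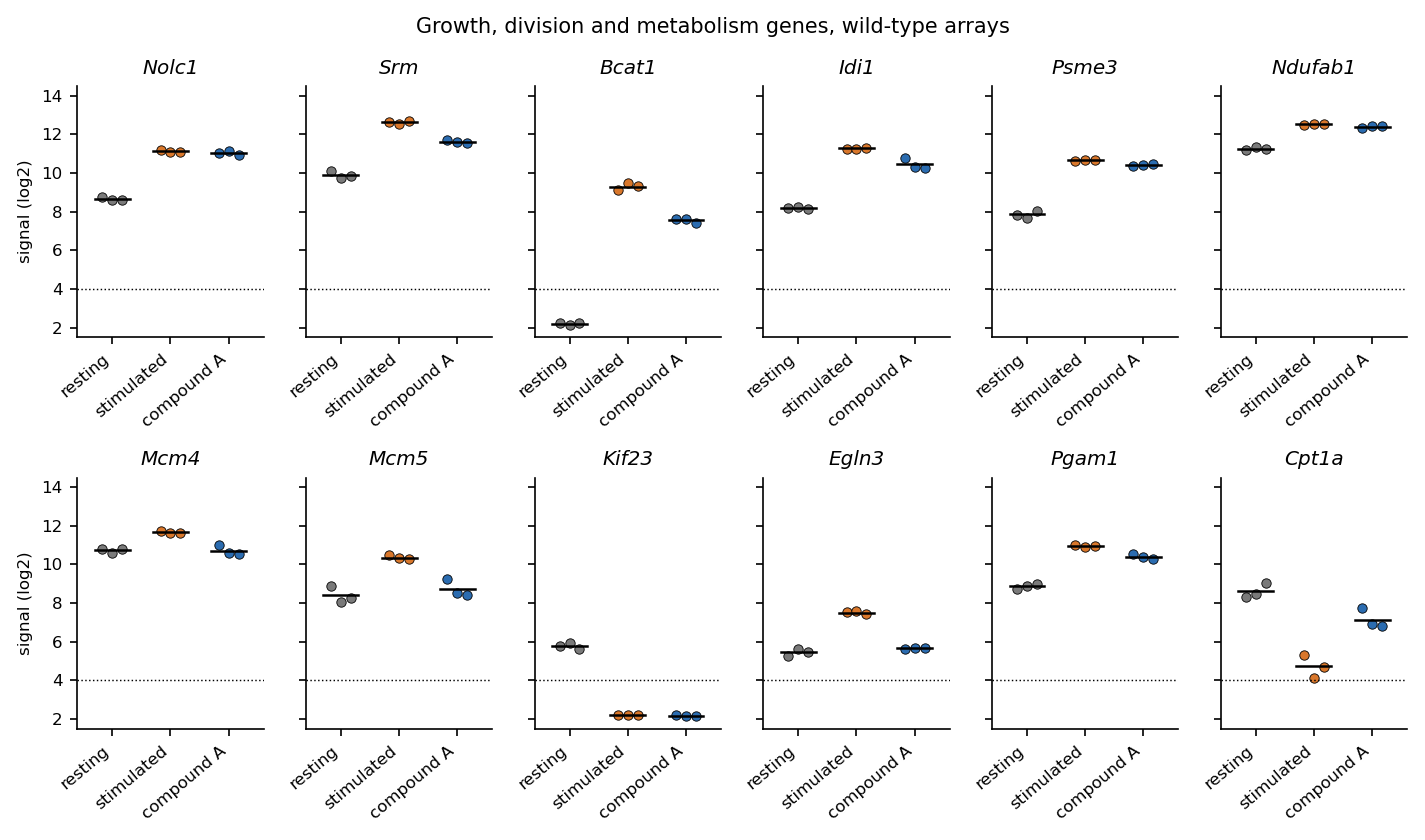
Log2 signal of 12 genes on the resting, stimulated and compound A arrays of wild-type cells (points: arrays 1 to 3 from left to right; line: mean; dotted line: floor of log2 4). Growth genes in the upper row lie at or below the stimulated level with compound A, Mcm4, Mcm5 and Egln3 lie near rest, and Cpt1a lies between the groups.

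Some genes of other functions also differed from stimulated cells. Crabp2, a carrier of retinoic acid, read 2.25, 2.26 and 2.26 at rest, 10.10, 9.98 and 9.88 after stimulation and 5.90, 5.79 and 5.30 with compound A. It was induced on every compound A array but far below the stimulated ones, with a mean at least 3.17-fold above rest and 20.0-fold below stimulated cells, a difference of -4.32 ± 0.15 (SE; adjusted p = 3.9e-10). Gzma, which encodes granzyme A, stood at 7.95, 8.69 and 8.42 at rest, 8.0, 7.78 and 7.88 after stimulation and 4.09, 4.82 and 4.93 with compound A. The compound A mean was 13.3-fold below rest and 9.67-fold below stimulated cells (-3.27 ± 0.30 SE, adjusted p = 3.42e-06), while stimulated and resting cells overlapped. Gzma is also one of the CD8 T and NK cell markers, of which 4 of 5 tested fell with compound A. Npas2, a clock factor, stood above the floor in stimulated wild-type cells alone of the 6 groups, at 5.48, 6.21 and 5.71, against 2.34, 2.30 and 2.54 with compound A and a mean of 2.88 in stimulated knockout cells, all of the latter under the floor. Npas2 passed the filter through those stimulated arrays, so its direction against compound A was fixed by the filter.

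A few stress genes were above both wild-type groups. Hspa1a, an inducible heat shock protein, read 2.32, 2.91 and 2.40 at rest, 2.41, 2.41 and 2.47 after stimulation and 3.13, 7.16 and 6.90 with compound A. Arrays 2 and 3 were high and array 1 was under the floor. The difference from stimulated cells was 3.30 ± 0.79 (SE; adjusted p = 0.00542); it was 4.60 without compound A array 1 and 2.58 without array 2. The list of heat shock proteins as a whole rose as in stimulated cells, 15 and 14 of 20. Ndrg1, a stress and hypoxia gene, stood at 6.80, 6.83 and 6.88 at rest, 6.43, 6.31 and 6.37 after stimulation and 7.71, 8.0 and 8.08 with compound A. All 3 compound A arrays were above both groups. Ndrg1 differed from stimulated cells by 1.56 ± 0.10 (SE; adjusted p = 1.27e-07) and from stimulated knockout cells by 1.32 (adjusted p = 2.31e-06).

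Several genes that were high with compound A against both wild-type groups followed the control RNA split. Malat1, a nuclear noncoding RNA, read 11.39, 12.07 and 11.74 at rest, 10.39, 10.30 and 10.10 after stimulation and 14.05, 14.22 and 13.66 with compound A, and had a mean of 14.03 and 13.10 in resting and stimulated knockout cells. Atrx, a chromatin remodeller, stood at 5.87, 6.52 and 6.22 at rest, 6.85, 6.76 and 6.40 after stimulation and 9.86, 9.93 and 9.38 with compound A, with knockout means of 9.95 and 9.40. Compound A differed from rest by 2.25 for Malat1 and 3.52 for Atrx, and from resting knockout cells by -0.05 (adjusted p = 0.846) for Malat1 and -0.23 (adjusted p = 0.424) for Atrx. Zbtb7a, a transcriptional repressor, and Cntrl, a centrosome protein, were 3.48 and 3.60 above rest on the log2 scale, and differed from resting knockout cells by -0.10 (adjusted p = 0.668) and -0.08 (adjusted p = 0.878). Compound A and the split cannot be told apart for these genes.

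**Figure D5:**
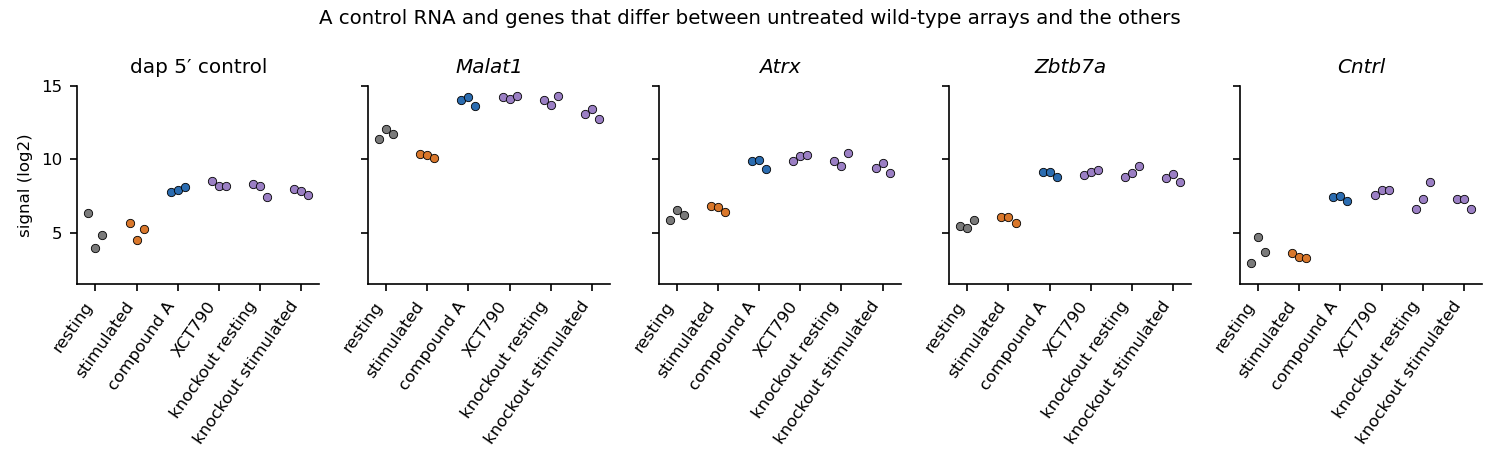
Log2 signal of the 5′ probe set of the bacterial dap control and of 4 genes on all 18 arrays (points: arrays 1 to 3 from left to right in each of 6 groups). Untreated wild-type arrays lie below all others in every panel, with 3.99 to 6.38 against 7.45 to 8.51 for dap.

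Genes of other cell types were among the largest falls from rest with compound A. Csf1r, the receptor for colony-stimulating factor 1 on macrophages, read 11.67, 10.85 and 10.71 at rest and 2.39, 2.39 and 2.40 with compound A, at least 135-fold lower, and 2.43, 2.48 and 2.42 in stimulated cells. C1qa, a complement subunit made by macrophages, and Vcam1, an adhesion molecule of splenic macrophages and endothelium, fell at least 41.5-fold and at least 77.4-fold. Of 13 macrophage markers 12 fell, and 11 lay under the floor on all compound A arrays; the summed signal of the list was 12.6 to 13.5 (log2) at rest, 7.22 to 7.74 in stimulated and 6.66 to 7.86 in compound A cells. All 6 tested B cell markers and 4 of 5 erythroid markers fell, and the erythroid sum was 10.2 to 11.9 at rest and 5.01 to 5.02 with compound A. Igha, an immunoglobulin heavy chain, read 14.25, 13.89 and 13.90 at rest and 7.62, 5.61 and 4.68 with compound A, with array 1 the highest; the fall was -8.05, -8.87 without that array and -7.40 without array 3. Igha differed from stimulated knockout cells by -4.87 (adjusted p = 0.00442). Against stimulated wild-type cells 0 macrophage, B cell or erythroid markers passed in limma, also at an unadjusted p under 0.05, with most macrophage and all erythroid markers under the floor in both groups. Against stimulated knockout cells 1 macrophage marker was lower and 1 B cell marker higher, and the macrophage sum was 8.12 to 11.6 on those arrays. The part of these lists in the results against either reference was not tested.

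Other lists are given by their counts against rest. Of 15 genes of the T cell receptor complex and its proximal signalling, 8 fell and 3 rose with compound A, against 10 and 1 in stimulated cells. Of 17 G1 cyclins, kinases and E2F factors, 5 rose and 7 fell with compound A, against 6 and 8. Of 20 p53 targets and BCL2 family genes, 8 rose and 6 fell, against 10 and 6. For 21 genes of the unfolded protein response the counts were 11 and 3, against 12 and 3. For 42 translation initiation factors they were 26 and 5, against 25 and 6. Of 11 amino acid transport and transamination genes, 7 rose and 1 fell with compound A, against 7 and 1 in stimulated cells, and of 10 polyamine genes 5 rose and 0 fell, against 6 and 2. Of 9 MAP kinase phosphatase and Sprouty genes, 3 rose and 5 fell, against 3 and 4, with medians of -0.32 and -0.32. Of 17 antioxidant targets of NRF2, 7 rose and 7 fell, against 6 and 8. Of 13 targets of hypoxia-inducible factors, 5 rose and 4 fell, against 5 and 5. Cytosolic ribosomal proteins, the structural parts of the ribosome, hardly moved, with a median of 0.00: 6 of 43 rose and 2 fell.

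Set directly against XCT790, the other inhibitor at the same dose, 27.6% of genes were higher and 24.5% lower with compound A. This is the 1 pair of compounds in the series, and the labels give no structure for compound A. Vegfa, the blood vessel growth factor, read 8.13, 8.61 and 8.46 with XCT790 and 2.23, 2.34 and 2.28 with compound A. It lay under the floor on every array without XCT790, at least 21.2-fold lower with compound A. Vegfa thus passed the filter through the XCT790 arrays alone, like 49 probe sets in all, and its direction was fixed by the filter. All 13 tested targets of hypoxia-inducible factors and all 16 tested genes of the integrated stress response were lower with compound A than with XCT790. Any member that entered these counts in that way could only be lower with compound A. Slc2a1 differed from XCT790 cells by -2.37 (adjusted p = 5.36e-08) and Ak4, a mitochondrial adenylate kinase, by -5.04 (adjusted p = 2.87e-09). Ifng went the other way: it read 6.80, 5.97 and 6.51 with XCT790, and compound A differed by 3.46 (adjusted p = 1.64e-06). Myo6, an unconventional myosin, and Pros1, protein S, were at least 20.3-fold and at least 14.4-fold higher with compound A. DNA replication genes were higher in 25 of 37 and complex I genes in 29 of 33. For Il2ra and Irf4 the differences did not pass, 0.24 (95% interval -0.26 to 0.73) and -0.50 (-1.10 to 0.10).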

How the data were processed

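The deposited value table holds log2 signals of 18 arrays, which the authors made with GCRMA, per the submitters' processing notes; its version is not given in the sources used here. Left out of the 22690 probe sets were 64 control probe sets, 1555 that name no gene and 691 that name more than 1. The 10691 of 20380 single-gene probe sets with log2 of at least 4 on 3 or more arrays were fitted in limma 3.58.1 (R 4.3.3) with 1 mean per group over all 6 groups and Benjamini-Hochberg adjustment; Python 3.11.15, pandas 2.3.3 and matplotlib 3.10.9 did the rest. The array numbers, which the labels give, paired compound A with stimulated wild-type arrays (correlations of deviations 0.43, 0.35 and 0.25) but not with resting (0.12, 0.04 and 0.06) or XCT790 arrays (0.11, 0.01 and 0.18). In simulated data the fit recovered 58% of 1.5-fold, 92% of 2-fold and 98% of 4-fold changes over 10691 probe sets, with 2 false calls. There, 50 probe sets were changed at each fold, far fewer than passed in the real comparison. The simulated noise was independent, without array pairing or the control RNA split, so these rates need not hold for the real arrays.

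The gene lists, and the choice of what to describe, were made with earlier results of these data known. Genes were named by rule: a fixed set, the largest differences with non-overlapping arrays, and up to 4 members of smallest adjusted p per list and comparison. Some results are not reported here.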

Additional observations from a re-analysis of the deposited data

Results flagged for a closer look

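The 5′ probe set of the bacterial dap control, which lies outside the gene comparisons, read 2.87 higher (log2) on the mean of the compound A arrays than on that of the resting wild-type arrays. Its 3′ probe set read 11.4 to 11.9 on resting and 10.80 to 10.98 on compound A arrays, in the other direction. The 3′ readings did not follow the 5′ split. They were 10.57 to 10.88 on stimulated wild-type and 10.68 to 10.99 on stimulated knockout arrays, and 11.50 to 11.67 on resting knockout and 11.02 to 11.47 on XCT790 arrays. The stimulated wild-type arrays lay with the resting ones in the 5′ probe set, and the XCT790 and knockout arrays with compound A. The part of this difference in the gene results was not tested.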

How the results depend on the processing

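Against rest, compound A gave 3717 to 3792 higher and 3208 to 3306 lower probe sets with any 1 array left out; of the 8 kept, blunted, missing and exceeded counts, those of kept, blunted and missing genes also held within 1.5 times. Exceeded genes ranged from 18 to 42 (rising) and 13 to 43 (falling). With the replicate block, compound A gave 4042 higher and 3499 lower probe sets against rest and 1814 and 2033 against stimulated cells; the block moved the exceeded falling genes from 29 to 50 and, beyond the calls named above, no other of these counts by over 1.5 times. Without the filter there were 6000 higher against rest, 7467 for stimulation, and 20 and 18 exceeded genes. With 1 probe set per gene, fewer features were tested: 2240 (higher against rest), 999 (higher against stimulated), 2542 (stimulation, higher) and 1707 (lower than XCT790). Means of probe sets gave 2453 and 2147 against rest, 1021 and 1275 against stimulated cells, 2662 and 2343 for stimulation and 1671 lower than XCT790. A 2-fold limit gave 1608 and 1442, 367 and 231, 1926 and 1751, and 652 and 540 in that order, 48 and 22 blunted and 2 and 15 exceeded genes. Array weights gave 2929 and 3280 against stimulated cells, 276 kept and 76 exceeded rising, and 482 blunted and 101 exceeded falling genes. Arrays 2 and 3 alone, an alternative chosen after seeing the data, gave 64 and 89 exceeded genes, and the compared groups alone 54 exceeded falling genes. The causes were not tested.

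With stimulated knockout cells as reference, 1157 probe sets were lower. Differences that changed sign against knockout cells were Esrra (0.56 against resting and 0.66 against stimulated knockout cells), Mcm3 (-0.65), Mcm5 (-0.77), Cntrl (-0.0798), Malat1 (-0.0501), Zbtb7a (-0.10) and Atrx (-0.23), the last 6 against resting cells. Esrra is the gene altered in ERRα-/- mice, so its change of sign holds the genotype. GCRMA values under log2 4 carry little signal over background, which limits differences near that floor.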
